A study of Mus musculus with 16 samples.

Results

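The genes described here make, bind or break down hyaluronan, or encode large proteoglycan core proteins that bind it. They are the synthase genes Has1, Has2 and Has3, the receptor gene Cd44, the hyaluronidase genes Hyal1 and Hyal2, and the core protein genes Vcan and Acan. They were picked by gene symbol, and all 8 were found among the 46348 genes of the deposited count table. The RNA came from MEC1 cells, a line established from mouse epicardium, and was sequenced as 16 libraries, 2 for each of 8 groups. The cells received PRMT1 siRNA with TGF-beta, PRMT1 siRNA alone, p53 siRNA with TGF-beta, p53 siRNA alone, both of these siRNAs with TGF-beta, both siRNAs alone, control siRNA with TGF-beta, or control siRNA alone. Every group therefore received an siRNA, and untransfected cells were not analysed here. PRMT1 is a protein arginine methyltransferase and p53, the product of Trp53, is a stress-responsive transcription factor. The dose and duration of TGF-beta and the siRNA amounts are not given in the sources used here. The series calls the 2 libraries of a group biological replicates without saying whether they came from separate cultures, and p-values therefore rest on a spread that may be technical. MEC1 is 1 cell line, and the RNA was bulk, so that fewer cells of a kind and less RNA per cell cannot be told apart.

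Hyaluronan is a long, unsulfated sugar polymer that hyaluronan synthases build at the plasma membrane and extrude into the matrix. CD44 binds it at the cell surface, versican and aggrecan bind it through a domain at one end and carry chondroitin sulfate chains, and hyaluronidases cut it. In the developing heart, hyaluronan and versican fill the matrix of the endocardial cushions, and mouse embryos without Has2 form neither cushions nor migrating cushion mesenchyme. TGF-beta turns cultured epicardial cells from an epithelial to a mesenchymal state. The study's title places PRMT1 and p53 in epicardial invasion and cell fate, and the comparisons below ask what TGF-beta and each siRNA did to the RNA of these 8 genes.

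The promoters of Vcan, Acan and Cd44 are shown because these 3 genes were called higher in every TGF-beta comparison. That of Has1, which was not called, is shown beside them. RefSeq on GRCm38.p6 gave a promoter for 6 of the 8 genes, and Has2 and Has3 had no entry in the table used. The Hyal1 and Hyal2 promoters are not printed, although Hyal2 was called higher with TGF-beta under PRMT1 siRNA. Each sequence is the 250 bases before the start used for the promoter, 5′ to 3′ on the gene's strand. That start can differ from the gene spans of the count table given below. The Acan window ends at 79053225 and the Acan span starts at 79053483, and the Hyal2 window (chr9:107568913-107569162) lies within the Hyal2 span. Capitals mark matches to CAGAC, bound by SMAD proteins, or GGAATG, bound by TEAD factors, on either strand.
Vcan, chr13:89742513-89742762, minus strand: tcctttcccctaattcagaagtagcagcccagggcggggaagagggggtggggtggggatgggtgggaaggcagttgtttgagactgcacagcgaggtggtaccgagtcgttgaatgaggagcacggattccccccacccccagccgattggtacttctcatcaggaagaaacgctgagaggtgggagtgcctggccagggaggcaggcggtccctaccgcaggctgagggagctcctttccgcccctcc
Acan, chr7:79052976-79053225, plus strand: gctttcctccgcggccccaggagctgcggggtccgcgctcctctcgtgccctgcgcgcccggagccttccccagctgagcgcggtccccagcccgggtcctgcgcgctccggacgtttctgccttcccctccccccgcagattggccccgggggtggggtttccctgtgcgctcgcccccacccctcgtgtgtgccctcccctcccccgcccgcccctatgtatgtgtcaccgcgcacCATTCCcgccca
Cd44, chr2:102901666-102901915, minus strand: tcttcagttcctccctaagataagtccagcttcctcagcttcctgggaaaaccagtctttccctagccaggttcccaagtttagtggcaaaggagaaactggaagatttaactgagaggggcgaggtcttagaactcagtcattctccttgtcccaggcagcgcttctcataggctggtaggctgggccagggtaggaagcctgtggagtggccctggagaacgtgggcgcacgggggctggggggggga
Has1, chr17:17855189-17855438, minus strand: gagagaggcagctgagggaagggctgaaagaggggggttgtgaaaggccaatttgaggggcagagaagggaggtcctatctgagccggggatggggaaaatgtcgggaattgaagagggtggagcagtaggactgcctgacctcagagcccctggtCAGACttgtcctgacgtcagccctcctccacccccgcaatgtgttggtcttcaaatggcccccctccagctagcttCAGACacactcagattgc
The Acan window held GGAATG once, on the minus strand and so printed as its reverse complement, and the Has1 window held CAGAC 2 times on the plus strand. Neither motif was in the Vcan or Cd44 windows. TGANTCA, bound by AP-1, was searched as well and was in none of the 4. Of the windows not printed, that of Hyal2 held GGAATG once and that of Hyal1 held CAGAC once, each on the minus strand. Neither held TGANTCA. Of 32851 promoter windows of the same length in the table, 42.2% held CAGAC, 12.6% held GGAATG and 6.75% held TGANTCA. No 2 matches in the printed windows overlapped, and a match describes letters, not binding. The Acan window was the richest of the 4 in G and C, at 74.4%, against 62.4% for Vcan, 58% for Has1 and 56.4% for Cd44.

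Libraries held 19617874 to 30759317 counts, and 15494 genes, all 8 described here among them, passed the filter on low counts and were tested. A gene was called when its adjusted p in edgeR's quasi-likelihood test was under 0.05. Prmt1 stood at 37.5% to 48.1% of the control siRNA level in the 4 groups given its siRNA, and Trp53 at 40.2% to 44.9% with p53 but not PRMT1 siRNA and 60.8% to 65.5% with both siRNAs. Of 12 epicardial and mesothelial markers, 9 averaged over 1 CPM (counts scaled to library size), and the list summed to 366 to 426 CPM in libraries with TGF-beta and to 1530 to 2310 CPM in libraries without it. Marker lists of other cell types summed to 9.55 to 16 CPM (endothelial), 0.163 to 0.84 CPM (cardiomyocyte) and 1.8 to 4.2 CPM (haematopoietic), with Tie1 and Adgre1 at 0 in all libraries. The epicardial marker sum was thus lower with TGF-beta, and its part in the TGF-beta changes below was not tested. Abundant genes weigh most in this sum, and single markers were not compared by TGF-beta. Over all libraries Upk3b averaged 296 CPM (highest 696) and Lrrn4 254 CPM (highest 654). Tbx18 averaged 21.7 CPM (highest 27.8) and Tcf21 10.3 CPM (highest 13). Replicate 2 of p53 siRNA with TGF-beta stood apart: it differed from its partner by 0.805 on the log2 scale (root mean square over genes), where the other pairs differed by 0.341 to 0.426. It also had the highest share of Rn18s-rs5, a ribosomal RNA gene (5.75% of counts, against 0.557% to 4.35% in the other 15), the fewest genes with a count (19133, against 20076 to 20978) and the lowest TMM factor (0.8613, against 0.9359 to 1.081), and the part of these in its values was not tested. It was kept, and since all groups share 1 estimate of the spread, values without it (15 libraries) are given beside the results they change.

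Divided by the length of the longest annotated transcript, Cd44 had the highest level of the 8 genes in all 8 groups. With TGF-beta, Cd44 stood at 23.4 to 41.5 CPM per kb and without it at 18.5 to 29.6 CPM per kb. Has2 was next after Cd44 with TGF-beta, at 11.7 to 22.7 CPM per kb, and stood below Hyal2 as well without it, at 2.13 to 5.31 CPM per kb. Hyal2 stood at 9.31 to 14.8 CPM per kb with TGF-beta and 8.09 to 11.2 CPM per kb without, and its libraries overlapped those of Has2 in p53 siRNA cells with TGF-beta. Has1 and Has3 stood under 1 CPM per kb in every library, and so did Acan. Summed over the 3 synthase genes, the level was 12 to 23.5 CPM per kb with TGF-beta and 2.97 to 6.11 CPM per kb without it. Has2 made up 95% to 98.9% of that sum (median 97.6%) in the 8 libraries with TGF-beta and 69.8% to 91.9% (median 86.3%) in the 8 without it, with no overlap.

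**Figure D1:**
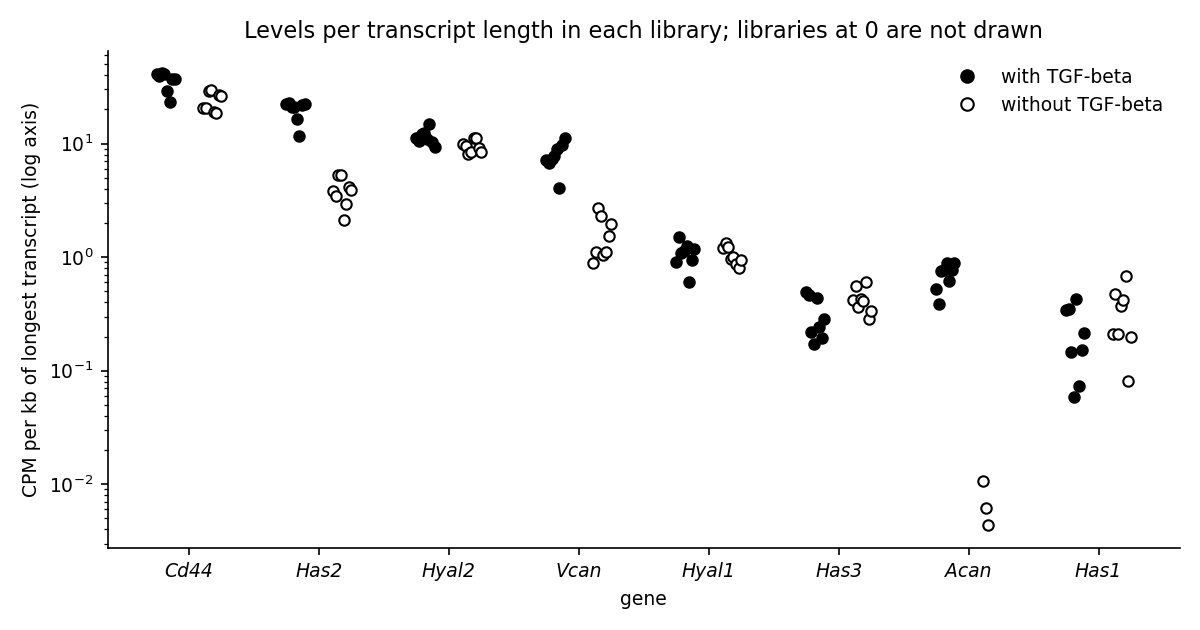
Level of each gene in each library, in CPM per kb of its longest annotated transcript on a log axis; filled points are the 8 libraries with TGF-beta and open points the 8 without it. Cd44 is highest in both states, Has2, Vcan and Acan separate by TGF-beta, and Acan is drawn for only 3 of the libraries without TGF-beta because the other 5 were at 0.

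Has2, the synthase that makes most hyaluronan in the embryonic heart, rose with TGF-beta under every siRNA. It stood at 89.1 CPM in both libraries of PRMT1 siRNA with TGF-beta, against 22.4 and 22.5 CPM with PRMT1 siRNA alone. With p53 siRNA it stood at 70.1 and 49.6 CPM with TGF-beta, against 9.01 and 12.5 CPM without. With both siRNAs it stood at 92.6 and 93.8 CPM with TGF-beta, against 17.6 and 16.6 CPM without. Every library with TGF-beta lay above every library without it, and the lowest of them was the library that stood apart. With control siRNA, Has2 stood at 93.9 and 96.3 CPM with TGF-beta, against 16.1 and 14.7 CPM without. The log2 changes ± SE were 1.99 ± 0.16 with PRMT1 siRNA (edgeR adjusted p = 1.51e-06), 2.47 ± 0.16 with p53 siRNA (2.34e-07), 2.45 ± 0.16 with both (3.2e-07) and 2.63 ± 0.16 with control siRNA (1.51e-07), or 3.97-fold to 6.17-fold. Under PRMT1 siRNA the level without TGF-beta was the highest of the 4 untreated groups, and the level with TGF-beta was within the range of the others.

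Has3, which makes shorter hyaluronan chains in vitro, was called in 1 of the 4 TGF-beta comparisons. It stood at 1.3 and 1.01 CPM in PRMT1 siRNA cells with TGF-beta, against 2.14 and 2.51 CPM in PRMT1 siRNA cells without it, a log2 change of -1.01 ± 0.32 (edgeR adjusted p = 0.0289). Both treated libraries were below both untreated ones, but the call was lost when any 1 of these 4 libraries was left out (-1.2 to -0.83, adjusted p = 0.0646 to 0.181). With control siRNA, Has3 stood at 2.94 and 2.75 CPM with TGF-beta, against 2.46 and 3.29 CPM without, and the groups overlapped. The log2 changes were -0.57 ± 0.3 with p53 siRNA and -0.34 ± 0.31 with both siRNAs, neither called. The p53 siRNA change was called without replicate 1 of its TGF-beta group, which keeps the library that stood apart (-1.06, adjusted p = 0.0147, beside 62.5% of all genes). The difference between the Has3 response with PRMT1 siRNA and with control siRNA was -1 ± 0.43 (adjusted p = 0.217). Has3 had only 28 to 89 counts per library.

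Has1, the synthase with the lowest activity of the family in vitro, held 5 to 60 counts per library. It ranged from 0.209 to 1.5 CPM (median 0.645) with TGF-beta and from 0.288 to 2.4 CPM (median 1.04) without it. These ranges overlapped. It was called in 0 of 15 comparisons by edgeR and by DESeq2, and reached an unadjusted p under 0.05 in 1, the PRMT1 siRNA effect with TGF-beta (0.513 and 0.209 CPM with PRMT1 siRNA, against 1.2 and 1.23 CPM with control siRNA, -1.76 ± 0.74, adjusted p = 0.124). Has1 was called in 4 of the 15 comparisons with no low-count filter and in 2 with only the groups of each comparison, with 15 libraries, or with length offsets in 15 libraries.

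Cd44, the main hyaluronan receptor, rose with TGF-beta under every siRNA. It stood at 233 and 228 CPM in PRMT1 siRNA cells with TGF-beta, against 163 and 166 CPM in those without it. With p53 siRNA it stood at 162 and 132 CPM with TGF-beta, against 106 and 104 CPM without. With both siRNAs it stood at 206 and 207 CPM with TGF-beta, against 149 and 146 CPM without. In none of these pairs did the libraries overlap. With control siRNA, Cd44 stood at 231 and 220 CPM with TGF-beta, against 115 CPM in both libraries without it. The log2 change was 0.48 ± 0.09 with PRMT1 siRNA (edgeR adjusted p = 0.00115), 0.48 ± 0.09 with p53 siRNA (0.00074), 0.49 ± 0.09 with both (0.00107) and 0.97 ± 0.09 with control siRNA (3.41e-06). The call with p53 siRNA was lost when only the 4 libraries of that comparison were fitted (0.46, adjusted p = 0.163).

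Of the hyaluronidase genes, Hyal2 was called in 1 of the 4 TGF-beta comparisons and Hyal1 in 0. Hyal2, whose product is anchored at the cell surface and cuts long hyaluronan, stood at 36 and 36.4 CPM in PRMT1 siRNA cells with TGF-beta, against 24 and 25.2 CPM in PRMT1 siRNA cells without it. The groups did not overlap, and the log2 change was 0.56 ± 0.12 (edgeR adjusted p = 0.00345). With control siRNA it stood at 33 and 31.5 CPM with TGF-beta, against 29.7 and 28 CPM without (0.16 ± 0.12, edgeR adjusted p = 0.323). The changes with p53 siRNA (0.21 ± 0.12) and with both siRNAs (0.15 ± 0.12) were not called either. The libraries with TGF-beta also lay above those without it with control siRNA and with both siRNAs, but overlapped them with p53 siRNA. Leaving out replicate 1 of p53 siRNA with TGF-beta, which keeps the library that stood apart, gave a called Hyal2 change of 0.42 with p53 siRNA (beside 62.5% of all genes), and leaving out that library gave -0.03. Hyal1, a lysosomal hyaluronidase, ranged from 1.82 to 4.55 CPM (median 3.33) with TGF-beta and from 2.42 to 3.98 CPM (median 2.96) without it. It was called in 0 of 15 comparisons by edgeR, with an unadjusted p under 0.05 in 0, and in 0 by DESeq2. The CPM of Hyal2 was 7.02 to 12.4 times that of Hyal1 in 7 libraries with TGF-beta, 24.6 times in the library that stood apart, and 6.63 to 12.9 times without TGF-beta, on transcripts of similar annotated length (2968 and 3014 bases).

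Vcan, which encodes the large matrix proteoglycan versican, rose with TGF-beta under every siRNA. It stood at 91.2 and 96.8 CPM in PRMT1 siRNA cells with TGF-beta, against 33.5 and 28.5 CPM without it. With p53 siRNA it stood at 111 and 50.4 CPM with TGF-beta, against 13 and 13.9 CPM without. With both siRNAs it stood at 120 and 139 CPM with TGF-beta, against 18.9 and 24.5 CPM without. All libraries with TGF-beta were above all libraries without it, though the 2 libraries of p53 siRNA with TGF-beta lay far apart. With control siRNA, Vcan stood at 88.6 and 83.1 CPM with TGF-beta, against 11.1 and 13.6 CPM without. The log2 changes were 1.6 ± 0.28 with PRMT1 siRNA (edgeR adjusted p = 0.000974), 2.59 ± 0.29 with p53 siRNA (2.21e-05), 2.58 ± 0.29 with both (2.9e-05) and 2.8 ± 0.3 with control siRNA (1.59e-05), or 3.03-fold to 6.94-fold. With p53 siRNA the Vcan change was 1.91 without replicate 1 of the TGF-beta group and 3.04 without replicate 2. Vcan has the longest transcript of the 8 genes (12427 bases), and at that length the smooth trend of log2 CPM with transcript length was -0.82 in the library that stood apart, against -0.33 to 0.25 in the other 15.

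Acan, which encodes the cartilage proteoglycan aggrecan, was near absent without TGF-beta and present with it. It stood at 5.53 and 5.67 CPM in PRMT1 siRNA cells with TGF-beta, at 6.52 and 4.54 CPM in p53 siRNA cells with TGF-beta, at 5.65 and 6.56 CPM with both siRNAs and TGF-beta, and at 3.81 and 2.84 CPM with control siRNA and TGF-beta. Without TGF-beta, 5 of the 8 libraries had 0 counts and the highest had 0.078 CPM. With control siRNA, 137 counts with TGF-beta stood against 0 without it, at least 47.1-fold higher when the 0 is set to 3 counts over the group. The ratio was 140 (95% exact counting interval 38.4 to 1160) with PRMT1 siRNA, from 303 and 2 counts, 262 (46.6 to 10400) with p53 siRNA, from 227 and 1 count, and 331 (59 to 13100) with both, from 367 and 1 count. These intervals and the lower bound cover counting error only. In edgeR the rise was called under every siRNA, with adjusted p = 2.68e-06 (PRMT1), 1.76e-06 (p53), 1.61e-06 (both) and 7.42e-06 (control).

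Taking the 8 genes as a group, 6 were called with TGF-beta under PRMT1 siRNA (5 higher, 1 lower), 4 with p53 siRNA, 4 with both siRNAs and 4 with control siRNA, all of these last 12 calls higher. Among all genes tested, the share called in these comparisons was 32.5%, 45.3%, 31.3% and 38.4% in the same order, and the share called higher was 16.3%, 23.3%, 15% and 17.8%, with 16.2% called lower with PRMT1 siRNA. The median log2 change of the 8 genes was 0.52, 0.35, 0.46 and 0.57, beside -0.01, 0.02, -0.02 and -0.01 for all genes. Has2, Cd44, Vcan and Acan were the 4 genes called under every siRNA. The 4 comparisons use different libraries, and each rise kept its call when any 1 library of its own comparison was left out.

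**Figure D2:**
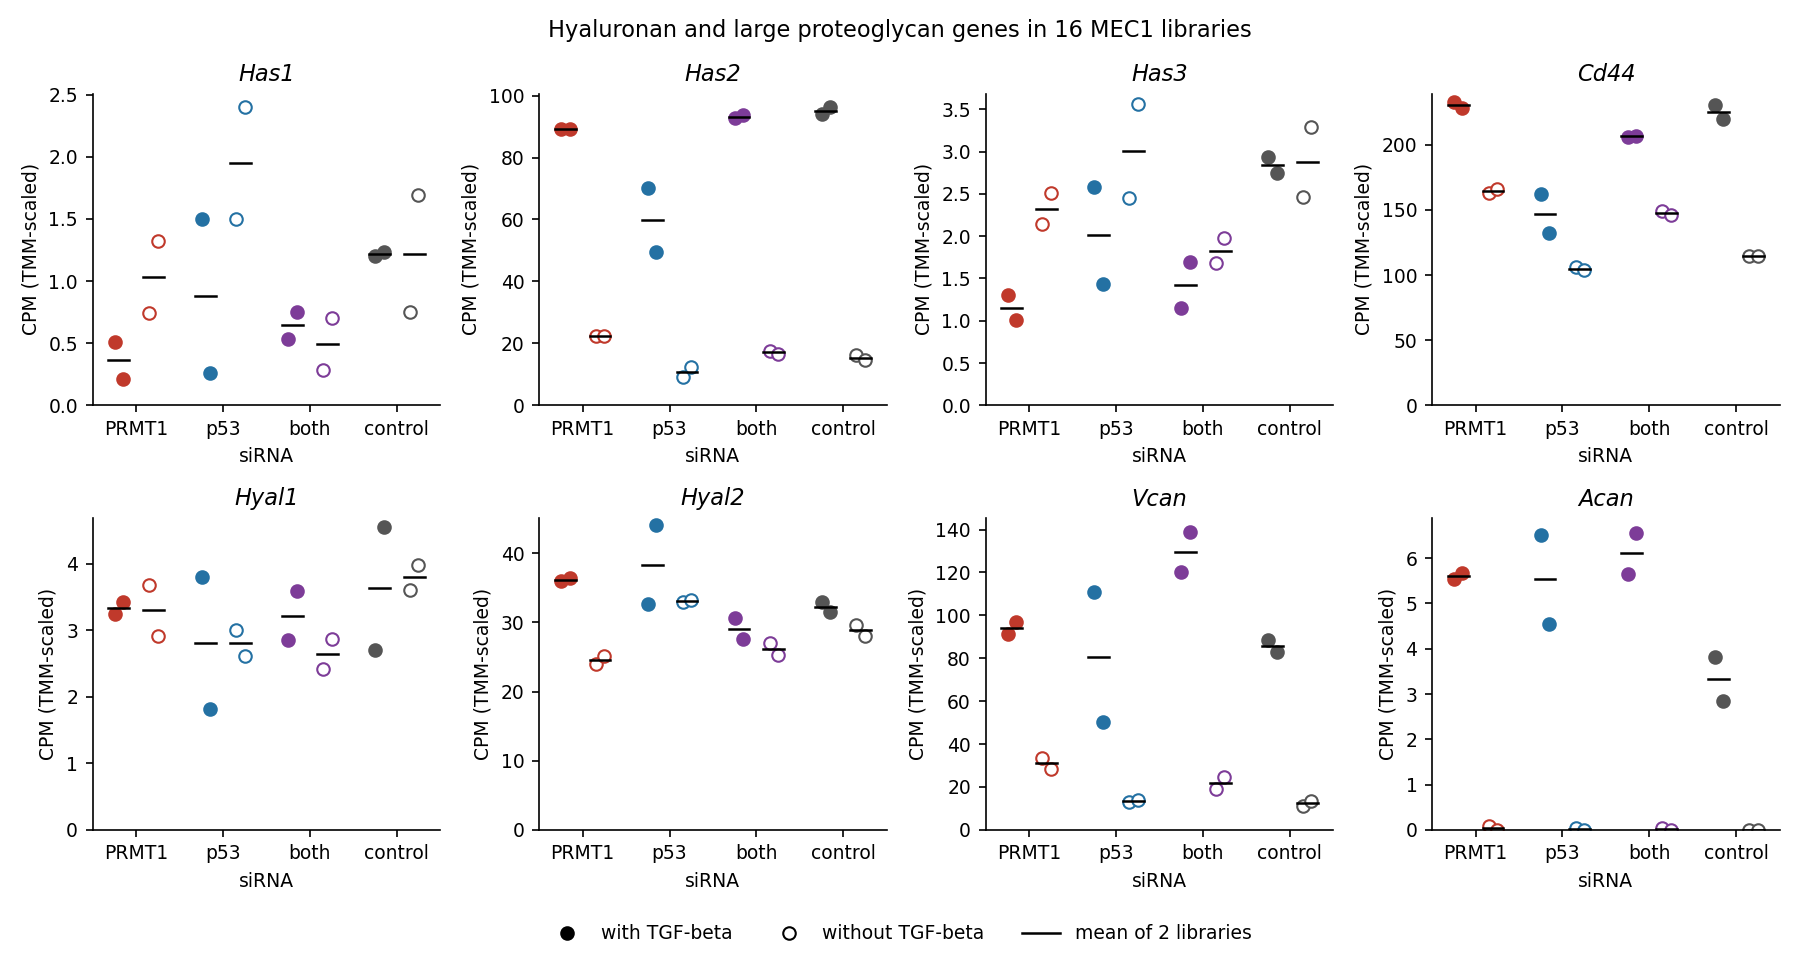
TMM-scaled CPM of each gene in each library, by siRNA; filled points are libraries with TGF-beta, open points those without it, and the bar is the mean of the 2 libraries. Filled points lie above open points under every siRNA for Has2, Cd44, Vcan and Acan, while Has1 and Hyal1 show no such split.

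**Figure D3:**
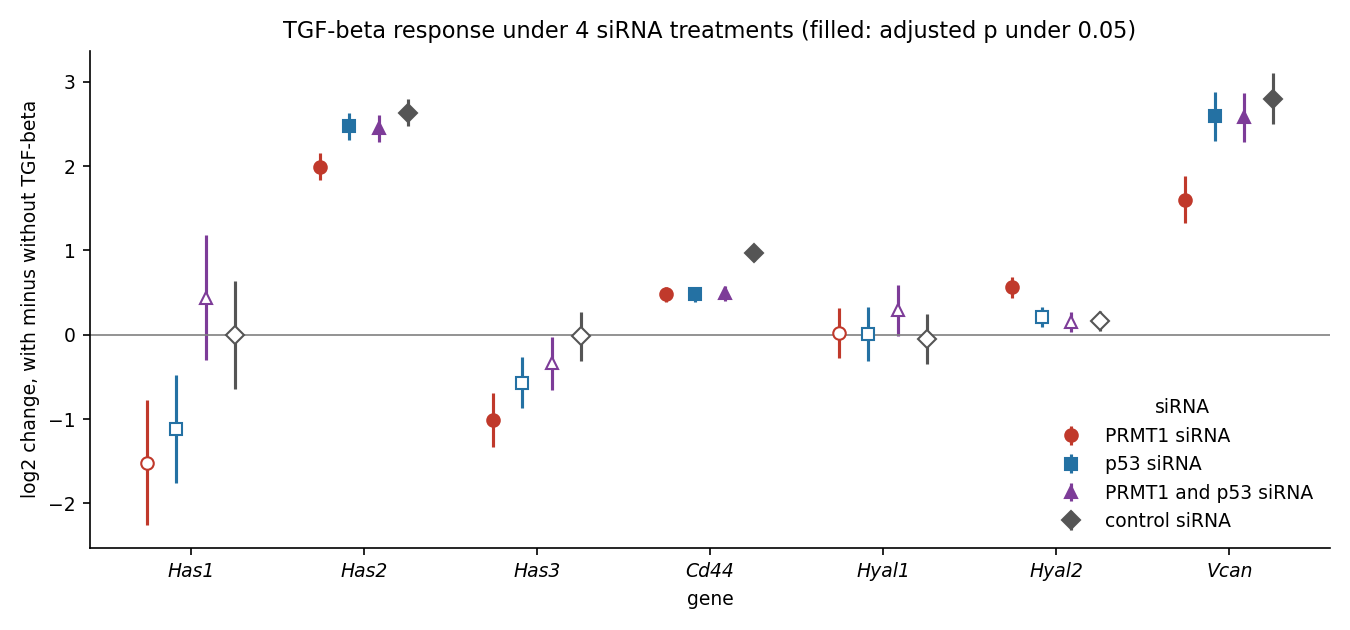
Log2 change with TGF-beta against without it, for 7 genes under each siRNA, with the SE from edgeR as bars and filled symbols where the adjusted p was under 0.05; Acan is left out because its untreated counts are at or near 0. Has2, Cd44 and Vcan are filled under every siRNA, and the PRMT1 siRNA points of Has2 (1.99) and Vcan (1.6) are the lowest of their 4.

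Without TGF-beta, Cd44 and Vcan were higher with PRMT1 siRNA than with control siRNA. Cd44 stood at 163 and 166 CPM with PRMT1 siRNA, against 115 CPM in both control siRNA libraries, a log2 difference of 0.52 ± 0.09 (edgeR adjusted p = 0.00352) or 1.44-fold. Vcan stood at 33.5 and 28.5 CPM with PRMT1 siRNA, against 11.1 and 13.6 CPM with control siRNA, 1.33 ± 0.29 (adjusted p = 0.0155) or 2.51-fold. In both genes the PRMT1 siRNA libraries lay wholly above the control ones. The Vcan call was lost without either control siRNA library or without PRMT1 siRNA replicate 1 (log2 difference 1.19 to 1.48 over the 4 fits that leave out 1 library, adjusted p = 0.0499 to 0.132). Has2 stood at 22.4 and 22.5 CPM with PRMT1 siRNA, against 16.1 and 14.7 CPM with control siRNA, 0.54 ± 0.16, which missed the threshold (adjusted p = 0.0541). The Has2 difference was called by DESeq2 (adjusted p = 0.0327), without a low-count filter (0.00133), with length offsets (0.0204) and with only these 4 libraries (0.00682). In the 15-library fit Has2 (0.52, adjusted p = 0.00205) and Hyal2 (-0.25, 0.0175) were called. The 2 calls of 8 stand beside 10.3% of all genes tested (4.48% higher and 5.85% lower), and the 4 calls of 8 in the 15-library fit beside 26.4%.

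With TGF-beta, Cd44, Vcan and Has2 were not called between PRMT1 siRNA and control siRNA. The log2 difference was 0.03 ± 0.09 for Cd44, 0.13 ± 0.27 for Vcan and -0.09 ± 0.15 for Has2. Has3 was the 1 gene called of 8, against 15.7% of all genes: it stood at 1.3 and 1.01 CPM with PRMT1 siRNA, against 2.94 and 2.75 CPM with control siRNA, -1.3 ± 0.32 (edgeR adjusted p = 0.0188). The libraries did not overlap, but the call was lost when any 1 of the 4 was left out (-1.49 to -1.12, adjusted p = 0.069 to 0.145). Acan stood at 5.53 and 5.67 CPM with PRMT1 siRNA, against 3.81 and 2.84 CPM with control siRNA, a ratio of 1.72 (95% counting interval 1.4 to 2.11). All libraries given PRMT1 siRNA were higher, and the adjusted p was 0.0921 over all libraries and 0.0158 in the 15-library fit, which called 41.4% of all genes here. With offsets that take out each library's trend with transcript length, Vcan was called higher with PRMT1 siRNA (0.5, adjusted p = 0.000278, beside 23.4% of all genes).

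p53 siRNA called 0 of the 8 genes without TGF-beta, where 2.47% of all genes were called; 1 gene reached an unadjusted p under 0.05 and DESeq2 called 0. That gene was Has2, at 9.01 and 12.5 CPM with p53 siRNA, against 16.1 and 14.7 CPM with control siRNA (-0.51 ± 0.17, edgeR adjusted p = 0.163; -0.53, adjusted p = 0.00929, in the 15-library fit, which called 11.7% of all genes). With TGF-beta, Has2 and Cd44 were lower with p53 siRNA, 2 of 8 beside 5.21% of all genes. Has2 stood at 70.1 and 49.6 CPM with p53 siRNA, against 93.9 and 96.3 CPM with control siRNA, -0.67 ± 0.15 (edgeR adjusted p = 0.0281). Cd44 stood at 162 and 132 CPM with p53 siRNA, against 231 and 220 CPM with control siRNA, -0.62 ± 0.09 (adjusted p = 0.00255). In both genes the p53 siRNA libraries lay below the control ones, and the lower of the 2 was the library that stood apart. Without that library both stayed called, with smaller differences (Has2 -0.45, adjusted p = 0.0233; Cd44 -0.48, 0.000419), in a fit that called 4.1% of all genes. The Has2 call was lost without either control siRNA library with TGF-beta (adjusted p up to 0.15), and both calls were lost when only these 4 libraries were fitted, with differences as large (Has2 -0.67, Cd44 -0.63, adjusted p = 0.694 for each) in a fit that called 0 of 14105 genes. Acan stood at 6.52 and 4.54 CPM with p53 siRNA, against 3.81 and 2.84 CPM with control siRNA, a ratio of 1.71 (95% counting interval 1.38 to 2.13; edgeR 0.74 ± 0.29, adjusted p = 0.13). The libraries did not overlap, and Acan was called without a low-count filter (0.75, adjusted p = 0.0165) and with length offsets in 16 (1.05, 0.0237) and 15 libraries (1.01, 0.0271). Vcan stood at 111 and 50.4 CPM with p53 siRNA, against 88.6 and 83.1 CPM with control siRNA, and its log2 difference of -0.08 ± 0.27 became 0.37 without the library that stood apart and -0.76, called, without its partner. Without that partner Has3 (-0.97, adjusted p = 0.0293) and Hyal2 (0.46, 0.000296) were called as well, in a fit that called 53.5% of all genes.

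With both siRNAs and no TGF-beta, 1 of 8 genes was called, against 4.45% of all genes. Cd44 stood at 149 and 146 CPM with both siRNAs, against 115 CPM in both control siRNA libraries, 0.36 ± 0.09 (edgeR adjusted p = 0.0382). The libraries did not overlap, and the call was lost when any 1 of the 4 was left out (0.34 to 0.38, adjusted p = 0.131 to 0.216), with RLE size factors (0.34, 0.054) and without a low-count filter (0.37, 0.0559). Vcan stood at 18.9 and 24.5 CPM with both siRNAs, against 11.1 and 13.6 CPM with control siRNA, 0.81 ± 0.3 (adjusted p = 0.162; 0.79, adjusted p = 0.00177, in the 15-library fit, which called 18.7% of all genes). With TGF-beta, both siRNAs called 0 of 8, against 13.1% of all genes; 3 genes reached an unadjusted p under 0.05 and DESeq2 called 1. Has3 was the nearest, at 1.15 and 1.7 CPM with both siRNAs, against 2.94 and 2.75 CPM with control siRNA (-0.99 ± 0.3, edgeR adjusted p = 0.0528), with no overlap. Vcan stood at 120 and 139 CPM with both siRNAs, against 88.6 and 83.1 CPM with control siRNA (0.59 ± 0.27, adjusted p = 0.177). In the 15-library fit Has3, Vcan (0.6, adjusted p = 0.000784) and Acan (0.89, 0.00844) were called, beside 29.9% of all genes.

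**Figure D4:**
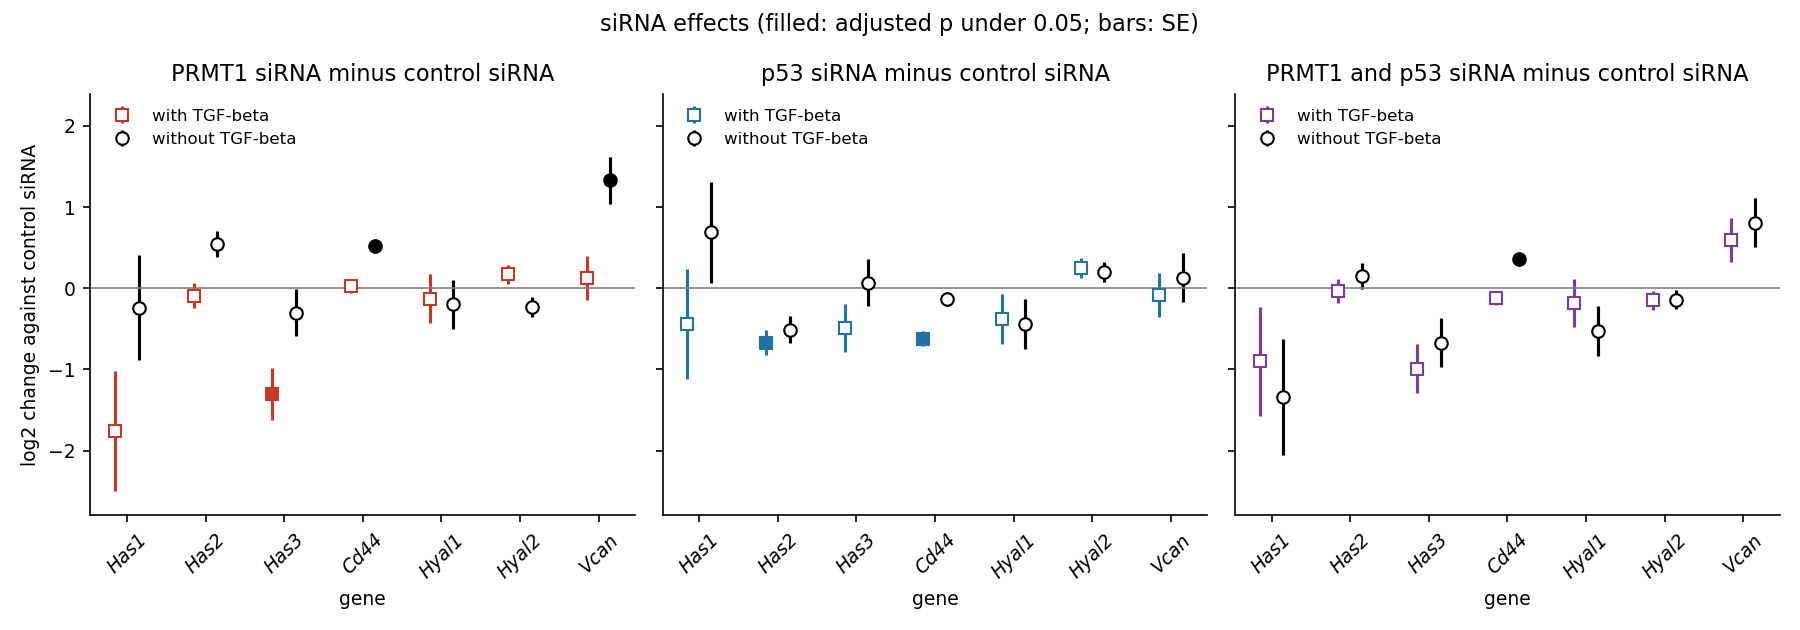
Log2 difference of each siRNA treatment against control siRNA for 7 genes, with the SE from edgeR as bars; squares are cells with TGF-beta, circles cells without it, and filled symbols have an adjusted p under 0.05. Vcan (1.33) and Cd44 (0.52) lie above 0 with PRMT1 siRNA alone and near 0 with PRMT1 siRNA and TGF-beta.

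Set against PRMT1 siRNA alone, adding p53 siRNA called 0 of the 8 genes with TGF-beta and 0 without it, where 0.452% and 0.865% of all genes were called; 1 gene reached an unadjusted p under 0.05 in each, and DESeq2 called 0 in each. Without TGF-beta, Vcan stood at 18.9 and 24.5 CPM with both siRNAs, against 33.5 and 28.5 CPM with PRMT1 siRNA (-0.52 ± 0.28, edgeR adjusted p = 0.393), and Has2 at 17.6 and 16.6 CPM, against 22.4 and 22.5 CPM (-0.39 ± 0.16, 0.268). Cd44 stood at 149 and 146 CPM with both siRNAs, against 163 and 166 CPM with PRMT1 siRNA (-0.16 ± 0.09, 0.395). In these 3 genes the libraries with both siRNAs lay wholly below those with PRMT1 siRNA alone. They did so in Has1, Has3 and Hyal1 as well, and lay wholly above in Hyal2. Such a split was thus not particular to Vcan, Has2 and Cd44, and its share over all genes was not counted. In the 15-library fit, which called 21.6% of all genes in this comparison, all 3 were called (Vcan -0.52, adjusted p = 0.0104; Has2 -0.38, 0.0165; Cd44 -0.15, 0.0407). With TGF-beta that fit called Hyal2 (-0.31, adjusted p = 0.0106) and Vcan (0.47, 0.0116), beside 12.2% of all genes.

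Whether the TGF-beta response itself differed from that with control siRNA was tested as an interaction, and the 3 interactions share the control siRNA libraries. With PRMT1 siRNA, 0 of 8 genes were called, against 2.08% of all genes; 5 reached an unadjusted p under 0.05 and DESeq2 called 2, Cd44 and Vcan. The response was 0.48 with PRMT1 siRNA and 0.97 with control siRNA for Cd44 (difference -0.49 ± 0.12, edgeR adjusted p = 0.0648). For Vcan it was 1.6 with PRMT1 siRNA and 2.8 with control siRNA (-1.2 ± 0.4, 0.136), and for Has2 1.99 with PRMT1 siRNA and 2.63 with control siRNA (-0.64 ± 0.22, 0.145). The fitted difference was negative for these 3 genes and positive for Hyal2, with a response of 0.56 with PRMT1 siRNA and 0.16 with control siRNA (0.4 ± 0.17, 0.205). In the 15-library fit all 4 were called: Cd44 (-0.48, adjusted p = 0.000392), Vcan (-1.19, 0.000464), Has2 (-0.63, 0.00356) and Hyal2 (0.41, 0.00708), where 30.7% of all genes were. With offsets for the trend with transcript length, the Vcan interaction was -0.66 (adjusted p = 0.00345, beside 7% of all genes). With p53 siRNA and with both siRNAs, 0 of 8 genes were called, against 1.02% and 1.26% of all genes; 1 gene in each, Cd44, reached an unadjusted p under 0.05 and was called by DESeq2. Its interaction was -0.49 ± 0.12 in both (edgeR adjusted p = 0.0932 and 0.0986). Without the library that stood apart it was called in each, at -0.34 with p53 siRNA (adjusted p = 0.0346, beside 2.24% of all genes) and -0.48 with both siRNAs (0.000867, beside 4.81%). Without its partner instead, 4 genes were called in the p53 siRNA interaction, among them Cd44 (-0.64, adjusted p = 3.65e-05), Vcan (-0.89, 0.00261) and Has2 (-0.42, 0.0345), beside 47.9% of all genes.

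Several of the 8 genes overlap other annotated genes on mm10, and whether reads were counted by strand is not given in the sources used here. Hyal1 (chr9:107576927-107581711) shares 2825 bases of its span with Nat6 and 894 with Hyal3 on the same strand, so its counts are uncertain. Nat6 stood at 7.52 to 12.3 CPM, above Hyal1 itself. Has3 (chr8:106870242-106884567) shares 705 bases with Chtf8 on the opposite strand, which stood at 153 to 190 CPM against at most 3.56 CPM for Has3, and reads of the pair cannot be told apart without strand. Vcan (chr13:89655312-89742510) shares 3051 bases with Gm4117 on the opposite strand, at 9.35 to 18.6 CPM, with libraries of both TGF-beta states at either end of that range. Has2 (chr15:56665627-56694540) overlaps its antisense gene Has2os, at 0.225 to 0.97 CPM, and Hyal2 (chr9:107567945-107572780) overlaps Gm9917, at 2.33 to 5.88 CPM. Cd44 (chr2:102811141-102901666), Has1 (chr17:17843328-17855189) and Acan (chr7:79053483-79115100) had no overlapping gene with a count in the table.

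Genes that supply, modify or cut the same molecules moved in both directions with TGF-beta under control siRNA, where the median change of all genes was -0.01 and 17.8% were called higher and 20.6% lower. Of 7 enzymes that make hyaluronan precursors, 4 rose and 1 fell: Gfpt2, which feeds glucose into the hexosamine pathway, averaged 6.12 ± 0.566 CPM with TGF-beta and 1.85 ± 0.117 CPM without (SD, n = 2 each; log2 change 1.73 ± 0.17, edgeR adjusted p = 6.33e-06), and Uap1, which makes UDP-N-acetylglucosamine, changed by 0.69 ± 0.09. Ugp2, which makes UDP-glucose, was the one that fell (-0.29 ± 0.07). Of 18 tested enzymes of chondroitin sulfate synthesis, 6 rose and 1 fell. Among them Chsy1, which extends the chain, averaged 77.8 ± 4.82 CPM with TGF-beta and 23.4 ± 1.13 CPM without (1.73 ± 0.08, adjusted p = 1.78e-08), and B4galt7, which acts on the linker to the core protein, changed by 1.17 ± 0.14. Csgalnact1, which starts the chain, was the one that fell (-0.63 ± 0.09). The median change was 0.37 for the precursor enzymes and 0.24 for the chondroitin sulfate enzymes.

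Of 10 tested hyaluronan-binding and receptor-associated genes, 4 rose and 4 fell with TGF-beta under control siRNA. Msn and Ezr encode moesin and ezrin, which link the tail of CD44 to actin, and went opposite ways: Msn averaged 1070 ± 17 CPM with TGF-beta and 415 ± 24.4 CPM without (1.37 ± 0.15, edgeR adjusted p = 1.51e-05), while Ezr averaged 251 ± 8.23 CPM with TGF-beta and 799 ± 10.2 CPM without (-1.67 ± 0.07, 3.71e-09). Tnfaip6, which transfers heavy chains onto hyaluronan, rose by 1.11 ± 0.12, and Ptx3, a pentraxin of the hyaluronan matrix, changed by -0.88 ± 0.11. Of 5 tested proteases that cut large proteoglycans, 1 rose and 2 fell. Adamts4, an aggrecanase, averaged 148 ± 2.81 CPM with TGF-beta and 16.8 ± 1.65 CPM without (3.14 ± 0.18, adjusted p = 7.75e-08), and Adamts9 and Adamts20 changed by -1.25 ± 0.26 and -1.29 ± 0.25. Of 7 tested genes of hyaluronan degradation and uptake, 2 rose, Tmem2, a cell-surface hyaluronidase (0.67 ± 0.2), and Gusb, a lysosomal glucuronidase (0.28 ± 0.09). Of 5 other large proteoglycan core protein genes, 1 rose, Col18a1 (0.36 ± 0.1). The medians of these 4 lists were 0.23, -0.03, 0.28 and 0.25.

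**Figure D5:**
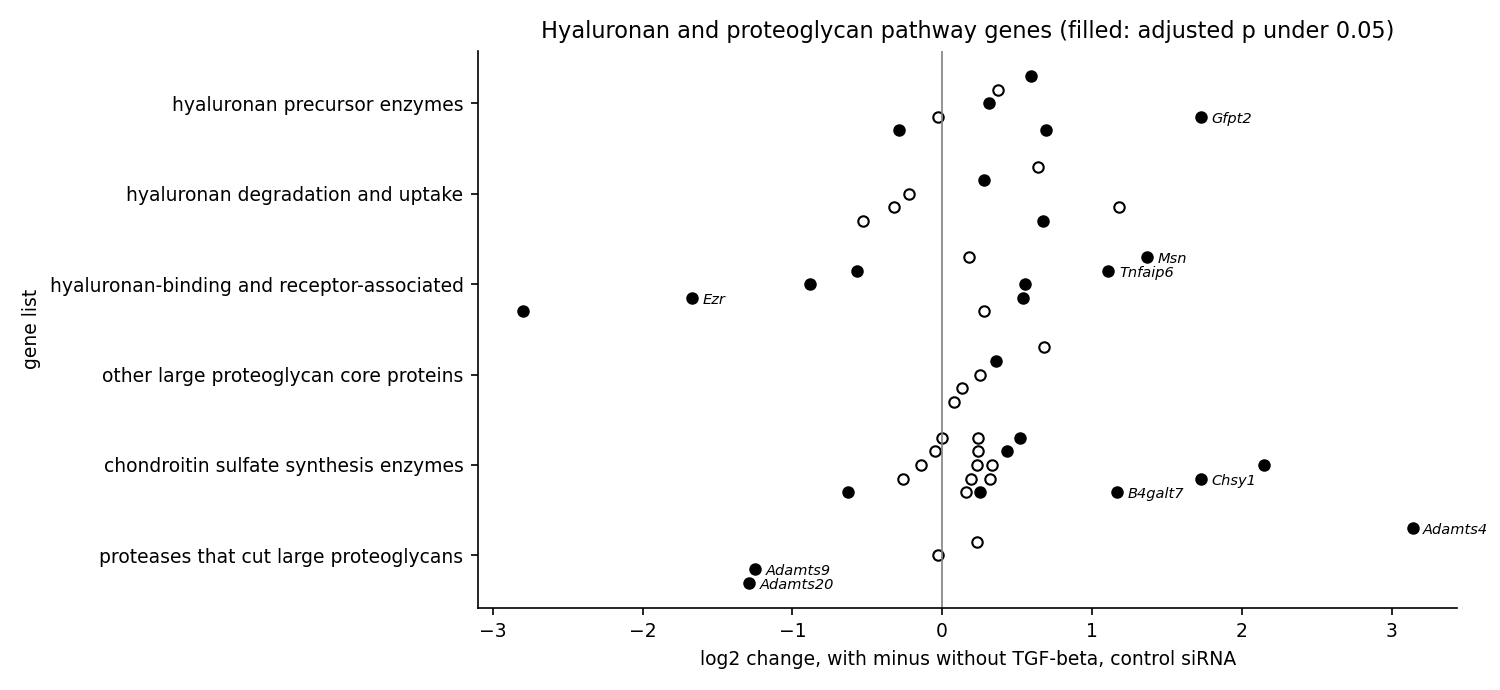
Log2 change with TGF-beta against without it under control siRNA for each tested gene of 6 lists, 1 row of points per list; filled points have an adjusted p under 0.05 and points are spread vertically only for legibility. Genes chosen to be named are labelled where they changed by more than 1, with Adamts4 farthest to the right at 3.14.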

How the data were processed

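Poly(A)-enriched RNA of 16 MEC1 libraries was sequenced, per the labels. The authors deposited expected counts for each gene, with totals that differ between libraries. The submitters' processing notes name TopHat2, Partek and mm10, and neither versions, strand use nor the annotation is given in the sources used here. Of nonzero values, 60% were whole to within 0.01; all were rounded before testing. Sample titles gave the groups.

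All 16 libraries entered 1 fit, with a mean for each group, in edgeR 4.0.16 (R 4.3.3) after TMM scaling and filterByExpr, which kept 15494 genes. Contrasts were 4 TGF-beta responses, 6 siRNA effects, 2 effects of p53 siRNA added to PRMT1 siRNA and 3 interactions. Benjamini-Hochberg adjustment ran over all genes tested, the common biological coefficient of variation was 0.114, and an SE is the log2 change divided by the root of F. CPM are TMM-scaled, and CPM per kb use the longest GENCODE vM21 transcript. The procedure was tested on simulated data. The 8 genes, the gene lists and the alternatives were chosen with earlier results of these data known. Named from the lists were the called genes with the lowest adjusted p: up to 4 per list in the TGF-beta response with control siRNA and up to 2 in the PRMT1 siRNA effect without TGF-beta; not all of these are reported here.

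Alternatives were DESeq2 1.42.0, RLE size factors, no low-count filter, a replicate block, offsets for each library's trend with transcript length (lowess span 0.3; 42003 genes matched by symbol and 813 by synonym), a 15-library fit that leaves out p53 siRNA + TGF-beta replicate 2, only the groups of the contrast, and each library of a contrast left out in turn. A left-out library leaves its group with 1, assumed to vary like the other groups. No set test was run.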

Additional observations from a re-analysis of the deposited data

How the results depend on the processing

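The 4 TGF-beta comparisons called 3 to 7 of the 8 genes under the alternatives, and Has2, Cd44, Vcan and Acan kept their rises except for Cd44 with p53 siRNA when only that comparison's libraries were fitted. The siRNA effects and interactions, with 0 to 2 genes called, changed in number with the setting, as did the share of all genes called, given here in parentheses. In untreated cells, for PRMT1 siRNA the 15-library fit called 4 of 8 (26.4%), and 4 (31.3%) with length offsets. In TGF-beta-treated cells, for PRMT1 siRNA the counts were 3 (14%) without a low-count filter, 3 (23.4%) and 5 (38.3%) with length offsets in 16 and 15 libraries, 3 (41.4%) with 15 libraries and 6 (53.2%) with only its own groups. For the p53 siRNA effect without TGF-beta they were 1 (2.2%) with no filter, 3 (16.5%) with offsets in 15 libraries and 1 (11.7%) with 15 libraries. With TGF-beta they were 4 (10.9%) and 4 (7.61%) with offsets and 0 (0%) with own groups. For both siRNAs without TGF-beta they were 0 (4.6%) with RLE, 2 (4.09%) with no filter, although the Cd44 call was lost there, 2 (11.9%) and 3 (23.6%) with offsets, 2 (18.7%) with 15 libraries and 2 (4.25%) with own groups. With TGF-beta they were 1 (13.6%) with DESeq2, 1 (13.4%) with RLE, 3 (9.2%) with no filter, 3 (23.2%) and 4 (34.9%) with offsets, 3 (29.9%) with 15 libraries and 3 (34.3%) with own groups. For p53 siRNA added to PRMT1 siRNA without TGF-beta they were 1 (4.18%) with no filter, 1 (19%) with offsets in 15 libraries, 3 (21.6%) with 15 libraries and 2 (16.8%) with own groups. With TGF-beta they were 1 (2.12%) with no filter, 1 (1.97%) and 3 (11.9%) with offsets, 2 (12.2%) with 15 libraries and 3 (21%) with own groups. For the PRMT1 interaction they were 2 (6.73%) with DESeq2, 2 (7.69%) with no filter, 1 (7%) and 4 (24.1%) with offsets, 4 (30.7%) with 15 libraries and 5 (32.3%) with own groups. For the p53 interaction DESeq2 called 1 (3.78%). For the interaction of both siRNAs 1 was called with DESeq2 (2.47%), with offsets (3.29% and 7.65%), with 15 libraries (4.81%) and with own groups (2.44%). The p53 siRNA comparisons that use the library left out of the 15 have their value without it under the replicates left out.

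Leaving out 1 library at a time, the number of genes called ran from 4 to 7 for the TGF-beta response with p53 siRNA, 1 to 2 for PRMT1 siRNA and 0 to 0 for both siRNAs without TGF-beta, 0 to 0 for PRMT1 siRNA and 1 to 7 for p53 siRNA with TGF-beta, and 0 to 4 for the p53 interaction. The 7s and the 4 came without p53 siRNA + TGF-beta replicate 1, which leaves its group to the library that stood apart, in fits that called 62.5%, 53.5% and 47.9% of all genes. The fits without 1 library called 4.29% to 4.95% of all genes for PRMT1 siRNA with TGF-beta and 0.757% to 1.04% for both siRNAs without it.

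Directions turned in small or uncalled values. Vcan's p53 siRNA effect with TGF-beta (-0.08) became 0.37 and 0.42 with offsets (both called, 16 and 15 libraries) and 0.37 without the library that stood apart (-0.76 without its partner), and its p53 interaction (-0.21) became 0.34 and 0.39 with offsets and 0.26 without that library (-0.89 without its partner). Hyal2's TGF-beta response with p53 siRNA (0.21) became -0.01 (offsets, 15 libraries) and -0.03 without that library; its p53 interaction became -0.02 and -0.19 with offsets and -0.17 without it; its interaction with both siRNAs (-0.01) became 0.02 without a filter, 0 with 15 libraries and ran from -0.06 to 0.08 with 1 library left out. Has2's p53 interaction became 0.07 (offsets, 15 libraries), 0.11 without p53 siRNA replicate 2 and 0.08 without the library that stood apart (-0.42 without its partner), and its effect of both siRNAs with TGF-beta became 0.01 without a filter. Acan's effect of p53 siRNA added to PRMT1 siRNA with TGF-beta (0.13) became -0.02 in both offset fits. With 1 library left out, Has3's TGF-beta response with control siRNA ran from -0.21 to 0.18, its p53 siRNA effect without TGF-beta from -0.23 to 0.31, and its effect of p53 siRNA added with TGF-beta from 0 to 0.57. Vcan's p53 siRNA effect without TGF-beta then ran from -0.02 to 0.26. The causes were not tested.

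Over 28 pairs of groups, the correlation of deviations with the same replicate number ran from -0.4 to 0.25 and was over 0.1 in 6 pairs. Pairing by that number was only described, and whether some groups shared a batch was not tested. With the number as a block, 83 of 83 values kept their direction and call, and the count of genes called was the same, 4 with TGF-beta under control siRNA. Over all genes, the p53 siRNA effect with TGF-beta called 808 genes and, with only its own groups, 0, and the PRMT1 interaction called 322 and, in the 15-library fit, 4936. Counts were low for Has1, Has3, Hyal1 and Acan, at 5 to 60, 28 to 89, 35.2 to 114 and 0 to 209 per library; Has1 gained 2 calls over 15 comparisons with 15 libraries and 4 with no filter.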

Other observations

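Under PRMT1 siRNA without TGF-beta, genes of the pathway lists were called in both directions. Cemip, a hyaluronan-degrading protein, averaged 140 ± 11.5 CPM with PRMT1 siRNA and 77 ± 5.38 CPM with control siRNA (SD, n = 2 each; log2 difference 0.86 ± 0.21, edgeR adjusted p = 0.0241). Col18a1, the collagen XVIII core protein, averaged 11.8 ± 1.03 CPM with PRMT1 siRNA and 6.45 ± 0.178 CPM with control siRNA (0.87 ± 0.1, 0.000397), and Tnfaip6 averaged 7.56 ± 0.269 CPM with PRMT1 siRNA and 4.35 ± 0.608 CPM with control siRNA (0.79 ± 0.12, 0.00168). Gfpt2 (0.6), Adamts5, an aggrecanase (0.44), and Csgalnact1 (0.37) were higher too, while Chpf2 (-0.43), which helps extend chondroitin chains, and Hapln4 (-0.27), a link protein, were lower. By list, called genes were 1 higher of 7 precursor enzymes, 1 higher and 1 lower of 10 binding genes, 1 higher of 5 core proteins, 1 higher and 1 lower of 18 chondroitin sulfate enzymes and 1 higher of 5 proteases. List medians ran from -0.04 to 0.17, beside 0.01 for all genes.

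The genes whose log2 CPM followed each of the 8 most closely over the 16 libraries, among about 10744 genes averaging at least 5 CPM, were found by Pearson's r. For Has2 they were Rasa3 (0.995) and Myo1e (0.993), for Cd44 Cldn12 (0.977) and Naa50 (0.969), for Vcan Prkrir (0.978) and Armcx4 (0.976), and for Acan Mmp2 and Col5a3 (both 0.99). For Has3 they were Ide (0.917) and Mdm4 (0.903), for Hyal2 Nono (0.961) and Atp6v0b (0.95), for Has1 Zfyve9 (0.927) and Yeats2 (0.925), and for Hyal1 Zc3h4 (0.821) and Hinfp (0.817). These values describe libraries that share the split by TGF-beta and 1 library that stands apart, and they carry no test.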
